A study of Mus musculus with 8 samples.

Results

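Retromer, the WASH complex, the vacuolar protein sorting (VPS) genes and the sorting nexins were followed in Ly6Chi monocytes taken from injured mouse liver. Control mice were compared with mice in which the gene of the endosomal protein COMMD10 was targeted. The genes were chosen by symbol: every gene of the count table named Vps, Washc or Snx followed by a number, together with Ccdc22, Ccdc93 and Dscr3. That gave 69 of the 15336 genes in the table, and 68 of them had enough counts to be tested.

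The monocytes came from male 8 weeks old mice on a C57BL/6 background that were fasted for 12 h, given 300 mg/kg acetaminophen intraperitoneally and sampled 24 h later, when the drug has caused necrosis and inflammation in the liver. The 4 control mice were Commd10fl/fl littermates, with both Commd10 alleles flanked by loxP sites and no Cre. The 4 deficient mice, labelled LysMDCommd10, carried the floxed gene with Cre under control of the lysozyme M (Lyz2) promoter, which is active in monocytes, macrophages and neutrophils. No group carried Cre with an intact Commd10, so loss of COMMD10 and the presence of Cre cannot be told apart, and uninjured mice are not analysed here. Poly(A) RNA of each mouse was sequenced as 1 library. The sample descriptions are spelled in 2 ways, which split the mice by number. Controls 2 and 3 with deficient mice 5 and 6 form the lower-numbered label set, and controls 10 and 11 with deficient mice 12 and 13 the higher-numbered one. What the sets stand for is not given in the labels, and each holds 2 mice of each genotype. The set was made a term in the model because earlier results of these same data showed that the sets differ.

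Membrane proteins that reach the endosome are either sent to the lysosome or retrieved. Retromer (VPS35, VPS29 and VPS26) and its relative retriever bind cargo for retrieval, sorting nexins hold the membrane through a PX domain and in the SNX-BAR class bend it into tubules, and the WASH complex builds the branched actin that keeps these tubules open. COMMD proteins, among them COMMD10, join CCDC22 and CCDC93 in the CCC complex, which works with retriever and WASH. HOPS and CORVET tether endosomes and lysosomes to each other, GARP and EARP tether vesicles at the Golgi and at recycling endosomes, and ESCRT complexes turn the membrane inwards for degradation. In phagocytes these routes set which receptors return to the surface and how phagosomes mature.

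Libraries held 13327665 to 15759224 counts in genes. The transcript of Commd10, the targeted gene, was lower in every deficient mouse: it stood at 27.8, 24.5, 27.2 and 29.8 CPM (counts scaled to TMM-adjusted library sizes) in controls 2, 3, 10 and 11 and at 15.8, 15.4, 17 and 8.74 CPM in deficient mice 5, 6, 12 and 13 (log2 fold change -0.94, SE 0.18, adjusted p = 0.0110, edgeR quasi-likelihood test with Benjamini-Hochberg adjustment over all 12178 genes tested). The fitted Commd10 level in deficient mice was thus 0.52 of that in controls, and the protein was not measured. Cre reads were found in the deficient mice alone, at 37 to 122 counts. All 8 listed monocyte markers were detected, with Ly6c2 at 212 to 355 CPM and Ccr2 at 1052 to 1725 CPM.

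Among the 68 tested genes, 10 rose in COMMD10-deficient monocytes and 0 fell. They were the sorting nexins Snx27, Snx18, Snx1, Snx25, Snx6, Snx4 and Snx12, the retromer subunit Vps29, the ESCRT-I subunit Vps37a and the lipid transfer gene Vps13d. The changes were small, with fold changes of 1.15 to 1.60. The 10 genes are 14.7% of those tested, and over all genes tested 6.59% rose and 7.35% fell at an adjusted p under 0.05. The median log2 fold change was 0.08 over the 68 genes, 40 of which lay above 0, and -0.00028 over all genes tested. With no label set in the model the edgeR test called 0 of the 68 (lowest adjusted p = 0.330) and 0 of all genes (lowest adjusted p = 0.273); at an unadjusted p under 0.05, 8 were then higher and 1 lower, where 5.75% and 6.73% of all genes were. Leaving out control 11 or deficient mouse 12 left 3 calls, Snx27, Snx18 and Snx1, while the share of all genes that rose was 2.72% and 2.61%. These 3 held in all 8 fits that each left out 1 mouse.

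**Figure D1:**
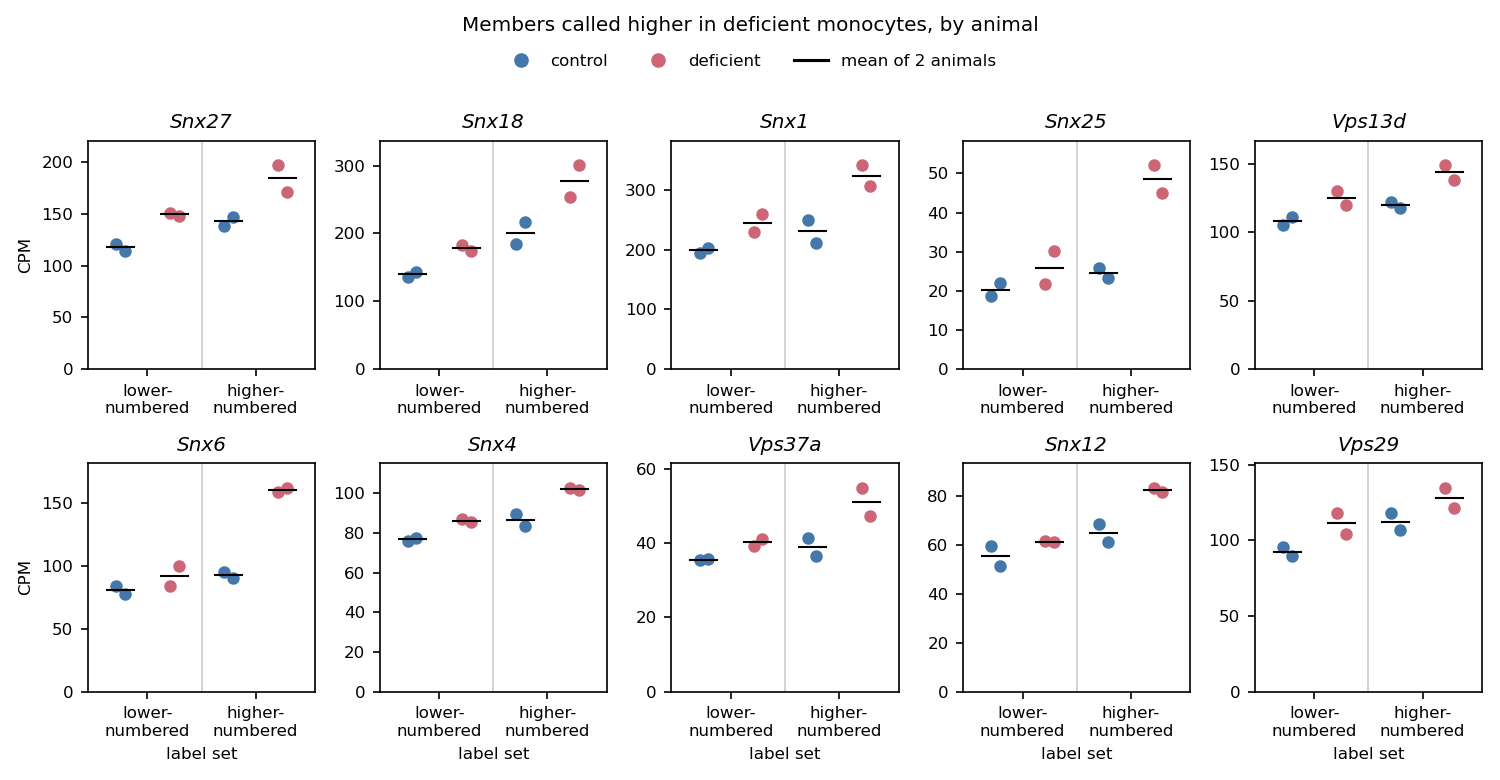
CPM of the 10 genes that rose, 1 panel a gene, with a point for each mouse, split by label set along the x axis and coloured by genotype, and a line at the mean of the 2 mice of a genotype in a set. The 4 deficient mice lie above the 4 controls for Snx27, and for the other genes the groups overlap over all mice. Within each set the deficient mice lie above the controls for 8 of the 10 genes, the exceptions being Snx6 and Snx25.

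The retromer core showed a small difference on 1 of its 4 genes. Vps29 (chromosome 5: 122354369 to 122364984, GRCm38), the scaffold subunit that retromer shares with retriever, stood at 95.4, 89.7, 118 and 107 CPM in controls 2, 3, 10 and 11 and at 118, 104, 135 and 122 CPM in deficient mice 5, 6, 12 and 13. Deficient mice lay above the controls of their own set, while the groups overlapped over all 8 mice. The log2 fold change was 0.23 (SE 0.066, adjusted p = 0.0480, edgeR), and the call held in 1 of the 8 fits that each left out 1 mouse. Vps29 was also not called with RLE factors (adjusted p = 0.0504), upper-quartile factors (0.0716), no count filter (0.056) or the filter of 5 CPM (0.0559). Vps26a, the main VPS26 subunit, went from 258 ± 12.8 CPM in controls to 288 ± 20.0 in deficient mice (SD, n = 4 per genotype); on the log2 scale the difference was 0.16 (adjusted p = 0.0634, edgeR). The backbone gene Vps35 had a log2 fold change of 0.16 as well (adjusted p = 0.0697), and DESeq2 called both. Vps26b, the second VPS26 gene, had a log2 fold change of -0.03 (adjusted p = 0.699). Summed over the core, control monocytes held 624 to 716 CPM and deficient ones 698 to 787 CPM.

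SNX-BAR genes held 4 of the 10 calls, among 12 tested, with a median log2 fold change of 0.14. Over all genes tested 6.59% rose. Summed over the class, controls held 1483 to 2208 CPM and deficient mice 1622 to 2569 CPM, so the genotypes overlapped. In the higher-numbered set 9 of the 12 were higher and 0 lower, where 18.6% and 18.3% of all genes were. The median log2 difference between the sets was 0.28. Snx1 (chromosome 9: 66088133 to 66126587), which pairs with SNX5 or SNX6 to form tubules that carry cargo back to the Golgi, stood at 195, 204, 250.3 and 212 CPM in controls 2, 3, 10 and 11 and at 230.2, 260.3, 342 and 306 CPM in deficient mice 5, 6, 12 and 13. Deficient mouse 5 lay within the range of the controls and the other 3 lay above it (log2 fold change 0.39, SE 0.079, adjusted p = 0.0139, edgeR).

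Snx18 (chromosome 13: 113592179 to 113618564), whose SH3 domain binds dynamin at sites of membrane scission, stood at 136, 144, 185 and 217 CPM in controls 2, 3, 10 and 11. In deficient mice 5, 6, 12 and 13 it stood at 182, 174, 254 and 301 CPM. Both sets showed a similar step, with log2 fold changes of 0.35 and 0.46, and the joint value was 0.41 (SE 0.076, adjusted p = 0.0103, edgeR).

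Snx6, a partner of SNX1 that links tubules to the dynactin motor complex, stood at 84.1, 77.8, 95.4 and 90.4 CPM in controls 2, 3, 10 and 11 and at 83.5, 99.4, 158 and 162 CPM in deficient mice 5, 6, 12 and 13. Most of its difference lay in mice 12 and 13: the lower-numbered set gave a log2 fold change of 0.18, the higher-numbered one gave 0.79, and the test of that difference gave an unadjusted p of 0.0017 and an adjusted p of 0.329. Over both sets Snx6 rose (log2 fold change 0.48, SE 0.12, adjusted p = 0.0293, edgeR), a call that held in 3 of the 8 fits leaving out 1 mouse. Snx4, which returns transferrin receptor and SNARE proteins from endosomes, had the smallest log2 fold change of the called genes, 0.20 (SE 0.050, adjusted p = 0.0293, edgeR), from 75.9 to 89.7 CPM in controls and 85.4 to 103 CPM in deficient mice, and its call held in 3 of those 8 fits. Snx5, which recognises the mannose 6-phosphate receptor, had a log2 fold change of 0.14 (adjusted p = 0.414), and Snx8, a sorting nexin of the endosome-to-Golgi route, one of 0.28 (adjusted p = 0.0755).

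Promoter sequence is shown for Snx18, Snx1 and Vps29, which stand for the called SNX-BAR and retromer genes, and for Vps26a beside Vps29. Windows are from RefSeq on GRCm38.p6, run from 250 bases before to 50 after the annotated start and read 5′ to 3′ on the gene's strand; capitals mark the E-box CACGTG, the core of the element bound by the lysosomal regulators TFEB and TFE3, or the CCAAT box, each searched on both strands (CCAAT reads ATTGG on the other strand) and not overlapping each other here.
Snx18 (chr13:113618515-113618814, minus strand): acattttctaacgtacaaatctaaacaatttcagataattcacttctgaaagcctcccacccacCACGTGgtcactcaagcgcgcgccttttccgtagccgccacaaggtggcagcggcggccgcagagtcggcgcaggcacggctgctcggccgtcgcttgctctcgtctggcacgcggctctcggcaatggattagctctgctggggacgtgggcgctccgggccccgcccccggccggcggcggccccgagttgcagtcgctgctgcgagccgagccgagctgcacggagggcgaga
Snx1 (chr9:66124837-66125136, minus strand): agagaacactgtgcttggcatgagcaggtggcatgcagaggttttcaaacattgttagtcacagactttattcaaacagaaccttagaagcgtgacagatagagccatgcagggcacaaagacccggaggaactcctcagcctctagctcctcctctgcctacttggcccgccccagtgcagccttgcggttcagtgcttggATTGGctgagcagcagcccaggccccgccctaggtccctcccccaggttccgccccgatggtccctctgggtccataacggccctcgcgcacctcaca
Vps29 (chr5:122354078-122354377, plus strand): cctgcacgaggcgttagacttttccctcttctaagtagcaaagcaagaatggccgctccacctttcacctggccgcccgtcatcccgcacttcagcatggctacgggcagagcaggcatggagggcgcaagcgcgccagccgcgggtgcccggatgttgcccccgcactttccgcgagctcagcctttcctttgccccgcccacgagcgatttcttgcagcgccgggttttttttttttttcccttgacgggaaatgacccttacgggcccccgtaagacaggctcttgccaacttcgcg
Vps26a (chr10:62486756-62487055, minus strand): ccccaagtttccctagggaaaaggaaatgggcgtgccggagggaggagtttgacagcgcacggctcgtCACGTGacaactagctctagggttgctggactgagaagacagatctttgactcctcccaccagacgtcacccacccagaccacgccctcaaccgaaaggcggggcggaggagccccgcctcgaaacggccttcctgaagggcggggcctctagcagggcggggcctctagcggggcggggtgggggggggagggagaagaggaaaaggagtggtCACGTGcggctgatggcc

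Of the 69 genes, 47 had a RefSeq promoter, in 58 windows. CACGTG was found in 12 of these windows, from 11 genes, and in 7.15% of all 32851 promoter windows. The 11 genes were Ccdc22, Snx18, Snx5, Snx8, Vps16, Vps26a, Vps33a, Vps50, Washc1, Washc2 and Washc4, of which Snx18 alone was among the 10 that rose. CCAAT was found in 18 of the 58 windows and in 37.4% of all. The motifs were chosen after the values were seen, a match is a description of the letters, and no binding was measured.

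Snx27 (chromosome 3: 94497544 to 94582716), the SNX-FERM protein whose PDZ domain hands glucose transporters and other cargo to retromer, had the lowest adjusted p of the 68 genes. It stood at 121, 114, 138 and 147 CPM in controls 2, 3, 10 and 11 and at 151, 148, 197 and 171 CPM in deficient mice 5, 6, 12 and 13, so that every deficient mouse lay above every control. The log2 fold change was 0.36 (SE 0.060, adjusted p = 0.0077, edgeR), and the sets taken singly gave 0.35 (lower-numbered) and 0.37 (higher-numbered). Its relative Snx17, the cargo adaptor of retriever, had a log2 fold change of 0.08 (adjusted p = 0.470). Snx27 was 1 of 3 genes, with Vps13a and Vps4a, whose deficient values all lay above the controls; 3.62% of all genes did so, and 0 of the 68 lay wholly below, as 3.40% of all genes did. Within both sets 17 of the 68 lay above (13.7% of all genes) and 2, Vps9d1 and Snx21, below (13.6%).

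Snx25, which in human cells promotes degradation of TGF-beta receptors, showed the largest log2 fold change of the called genes. It stood at 18.7, 22.0, 25.8 and 23.3 CPM in controls 2, 3, 10 and 11 and at 21.8, 30.1, 52.1 and 45.0 CPM in deficient mice 5, 6, 12 and 13. Deficient mouse 5 lay within the control range and the 3 others above it (log2 fold change 0.68, SE 0.15, adjusted p = 0.0202, edgeR); the lower-numbered mice gave 0.35 and the higher-numbered ones 0.98, and the call held in 4 of the 8 fits leaving out 1 mouse. The other 3 genes of its PXA and RGS domain class, Snx13, Snx14 and Snx19, had adjusted p-values above 0.05. Snx12, a PX-only relative of Snx3, stood at 51.2 to 68.2 CPM in controls and at 60.9 to 83.2 CPM in deficient mice (log2 fold change 0.25, SE 0.071, adjusted p = 0.0471, edgeR) and was called in 1 of those 8 fits. It was not called with upper-quartile factors, no count filter or the filter of 5 CPM. Of the 11 genes in the remaining sorting nexin class it was the only one called.

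**Figure D2:**
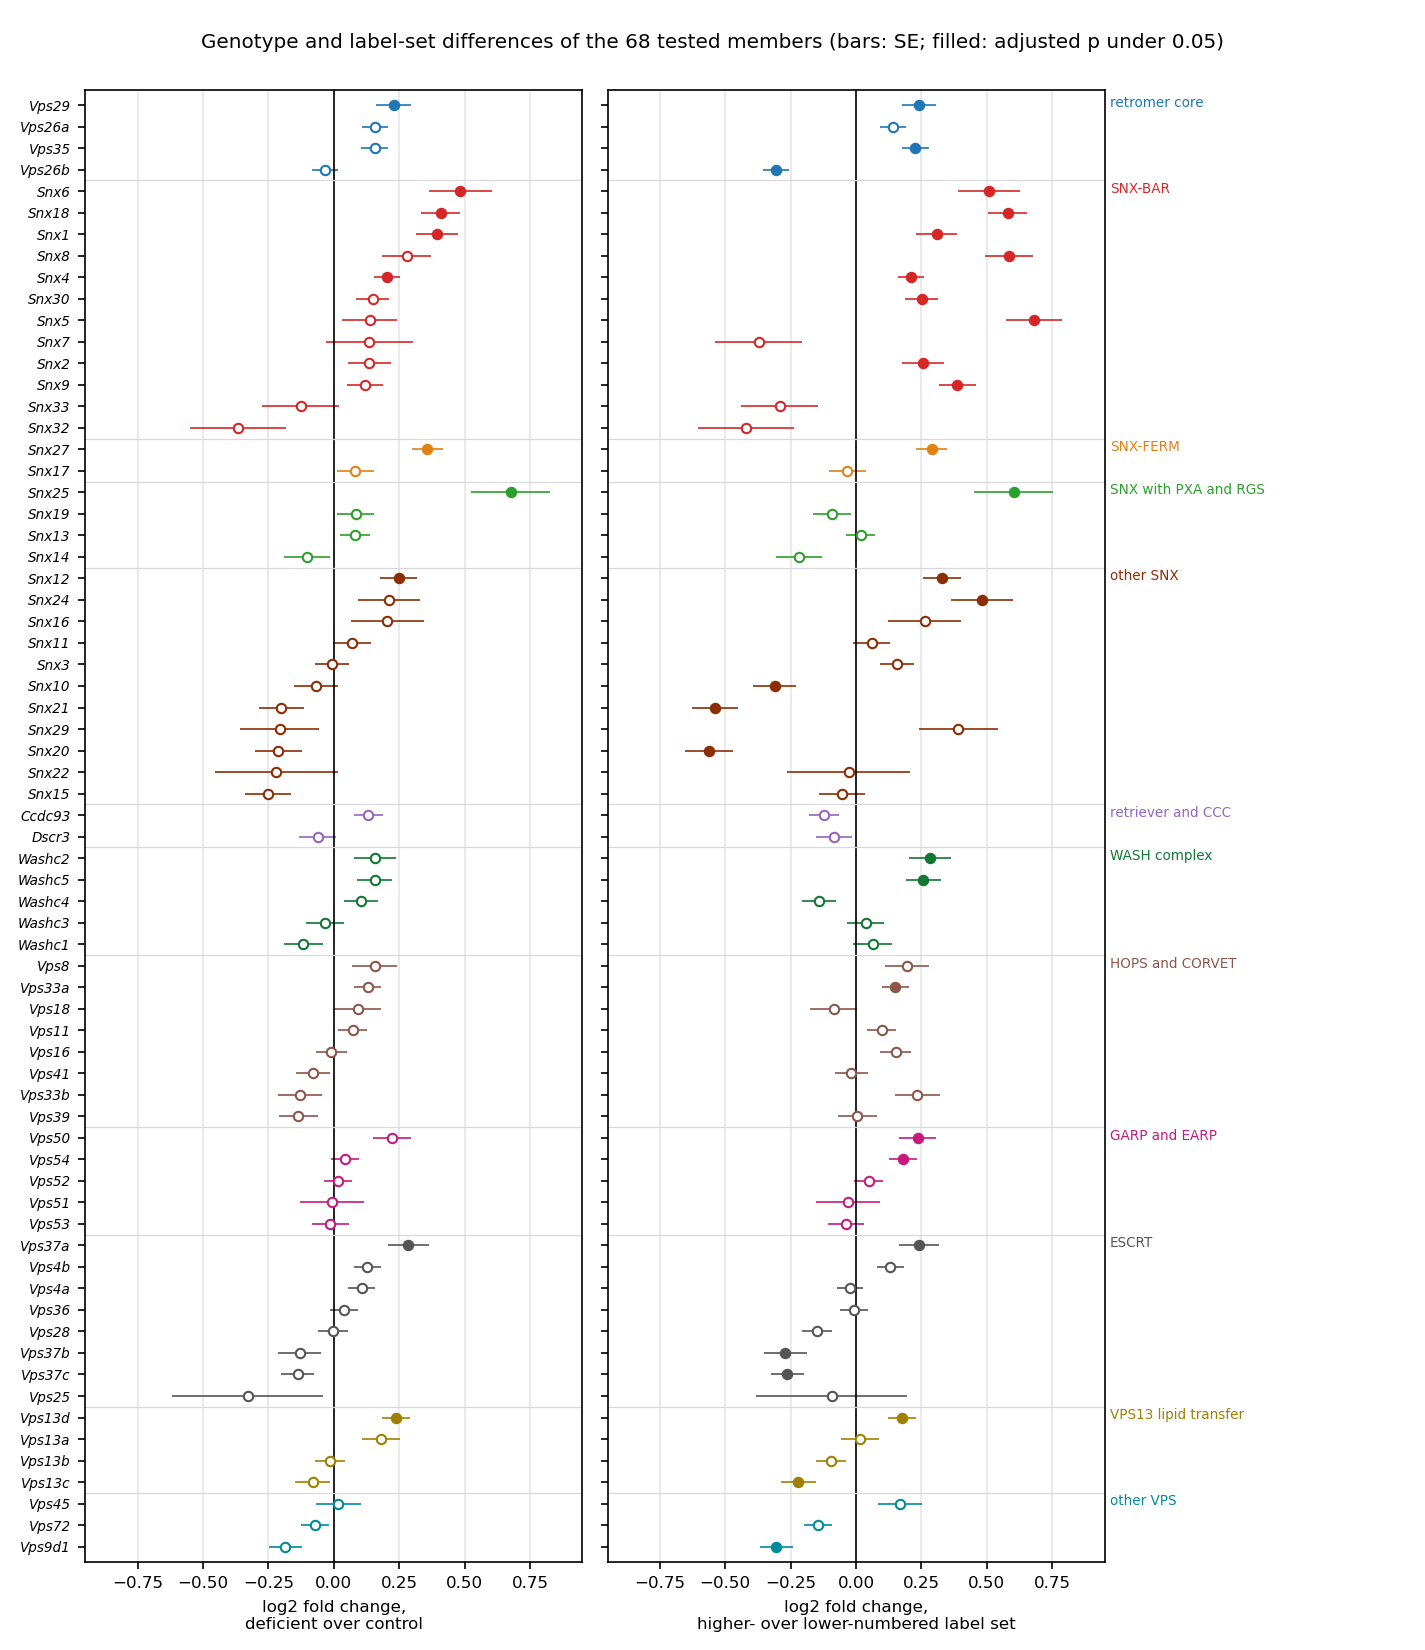
Log2 fold change of the 68 tested genes with SE bars, grouped by role, for genotype on the left and label set on the right; filled points have an adjusted p under 0.05. Filled genotype points lie above 0 and include 4 SNX-BAR genes, while filled label-set points lie on both sides.

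Retriever and the CCC complex, the direct partners of COMMD10, showed 0 of 2 tested genes called, out of 4 listed. Vps35l, 1 of the 4, has no row under that symbol in the count table and was not examined. Ccdc93 had a log2 fold change of 0.13 (adjusted p = 0.147) and Dscr3, the VPS26 subunit of retriever, one of -0.06 (adjusted p = 0.587). Ccdc22 was not tested: it had 3, 1, 6 and 2 counts in controls 2, 3, 10 and 11 and 6, 3, 11 and 14 counts in deficient mice 5, 6, 12 and 13. Of its exon bases 86.3% are shared on the same strand with the gene model Gm36995, so its counts are uncertain. Of the COMMD family, 1 of 10 genes was called, Commd10 itself. The WASH complex showed 0 of 5 genes called. Washc5, its strumpellin subunit, had a log2 fold change of 0.16 (adjusted p = 0.144), and Washc2, the tail that binds retromer, one of 0.16 (adjusted p = 0.214).

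The HOPS and CORVET tethers showed 0 of 8 genes called, with log2 fold changes from -0.14 to 0.16; Vps33a had 0.13 (adjusted p = 0.123) and Vps8, which is specific to CORVET, 0.16 (adjusted p = 0.243). GARP and EARP showed 0 of 5, among them Vps50, which defines EARP, at 0.22 (adjusted p = 0.0665), and Vps54, which defines GARP, at 0.04 (adjusted p = 0.619). Of the 8 ESCRT genes 1 rose: Vps37a, 1 of the interchangeable ESCRT-I subunits, went from 35.4 to 41.3 CPM in controls to 39.4 to 55.0 CPM in deficient mice (log2 fold change 0.29, SE 0.077, adjusted p = 0.0389, edgeR, called in 1 of the 8 fits leaving out 1 mouse). Its relatives Vps37b and Vps37c had log2 fold changes of -0.13 and -0.14 (adjusted p = 0.313 and 0.169). Of the 4 VPS13 lipid transfer genes 1 rose: Vps13d, which acts in mitochondrial clearance and peroxisome formation, stood at 105, 111, 122 and 118 CPM in controls 2, 3, 10 and 11 and at 130.0, 120.1, 149 and 138 CPM in deficient mice 5, 6, 12 and 13 (log2 fold change 0.24, SE 0.054, adjusted p = 0.0223, edgeR, called in 5 of the 8). The 3 genes left, Vps9d1, Vps72 and Vps45, were not called; Vps9d1, with the VPS9 domain that in relatives activates Rab5, had -0.19 (adjusted p = 0.0772).

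More of the genes were called between the label sets than between the genotypes. Of the 68, 22 were higher and 8 lower in the higher-numbered set, where 18.6% and 18.3% of all genes were. Both comparisons use the same 8 mice, so their values are set side by side. Markers of other cells also differed between the sets, as given below, and their part in these differences was not tested. Snx5 stood at 588, 493, 512 and 632 CPM in the lower-numbered mice 2, 3, 5 and 6 and at 935, 732, 1015 and 890.1 CPM in mice 10, 11, 12 and 13, with no overlap between the sets (log2 difference 0.68). With Snx5, the genes of smallest p among those higher were Snx8 (log2 difference 0.58), Snx18 (0.58), Snx9 (0.39) and Snx27 (0.29). The 8 lower genes, by size, were Snx20 (-0.56), which binds the selectin ligand PSGL-1, Snx21 (-0.54), Snx10 (-0.31), Vps26b (-0.31), Vps9d1 (-0.30), Vps37b (-0.27), Vps37c (-0.26) and Vps13c (-0.22). Each of the 10 genes that rose with genotype was also higher in the higher-numbered set, by 0.17 to 0.60. Both values come from the same fit. The same overlap was not counted over all genes that rose, so it is not read as a trait of these 10. The genotype difference itself differed between the sets, at an adjusted p under 0.05, for 0 of the 68 (lowest 0.329, edgeR interaction term). Over all 12178 genes tested it did for 5. At an unadjusted p under 0.05 it did for 9 of the 68, and the share over all genes was not counted. Snx10, which binds the vacuolar proton pump, had the second lowest interaction p, with log2 fold changes of 0.14 (lower-numbered set) and -0.28 (higher-numbered set). The first principal component of the 68 genes held 65.4% of their variance, and that of all genes tested held 60.5% of theirs. The sign of a component is arbitrary. Positions of the mice on the component of all genes were not compared, so their order is not read as a trait of the 68 genes. On the component of the 68 genes, the lower-numbered mice lay between -1.82 and -0.26 and the higher-numbered ones between -0.04 and 2.15. Within each set the deficient mice lay higher on it than the controls: the lower-numbered controls were at -1.44 and -1.82 and the deficient mice at -0.87 and -0.26, and the higher-numbered controls were at 0.54 and -0.04 and the deficient mice at 2.15 and 1.75.

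**Figure D3:**
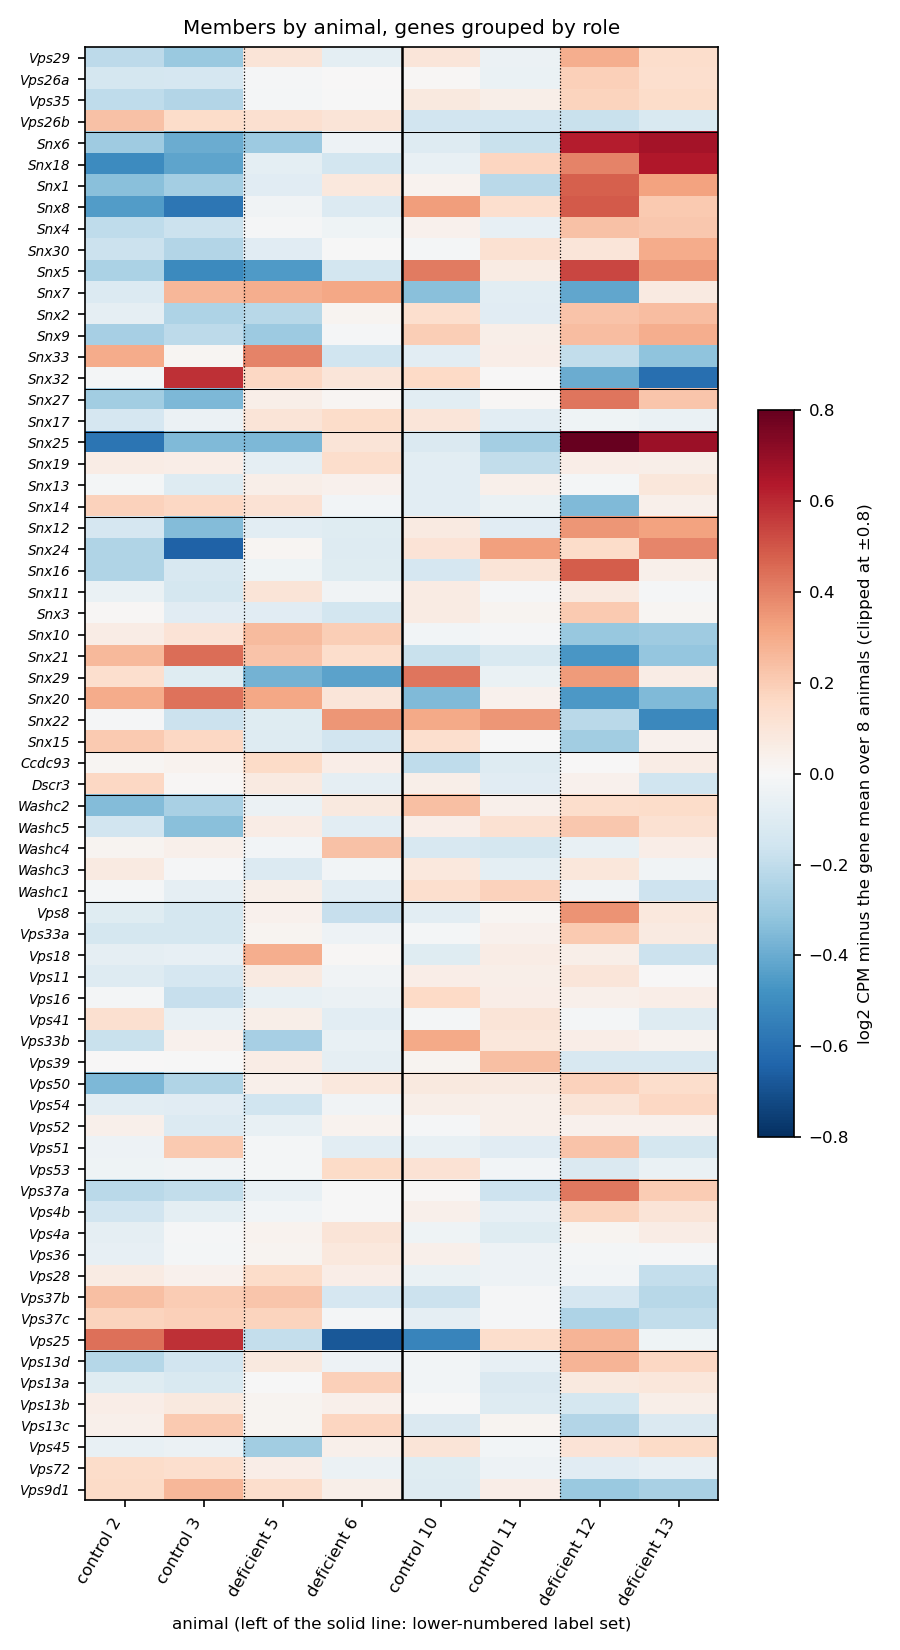
Log2 CPM of the tested genes in each mouse, centred on the gene's mean over the 8 mice, ordered by role. Deficient mice 12 and 13 are high for many SNX-BAR genes, and Snx20, Snx21 and Vps26b are lower in each higher-numbered mouse than in each lower-numbered one.

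Levels per length, in CPM per kilobase of exon averaged over the 8 mice, placed the PX-only gene Snx3, which works with retromer, first at 243. Snx5 followed at 174, Snx2 at 107, Vps26a at 95.5 and Snx1 at 57.6. Snx3 and Snx5 overlapped between mice, at 219 to 280.1 and 118 to 243. At the lower end Snx7 had 0.641 and Ccdc22 0.115. Of the called genes Snx18 was at 38.1, Snx6 at 35.5, Vps29 at 18.1 and Vps13d at 5.01.

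Known cargo and partners were listed as well. Of 17 genes for recycled cargo, 4 rose and 2 fell, around a median log2 fold change of 0.04. Over all genes tested 6.59% rose and 7.35% fell, which is the share to set beside each list here. Between the label sets 5 of the 17 were higher and 4 lower in the higher-numbered set, where 18.6% and 18.3% of all genes were. The log2 difference between the sets was 0.87 for Igf2r, 1.19 for Slc2a1 and -0.51 for Stx16. Igf2r, the mannose 6-phosphate receptor carried by SNX-BAR tubules, stood at 52.2, 47.0, 111 and 122 CPM in controls 2, 3, 10 and 11 and at 128, 102, 167 and 165 CPM in deficient mice 5, 6, 12 and 13 (log2 fold change 0.86, SE 0.14, adjusted p = 0.0073, edgeR). Slc2a1, the glucose transporter retrieved by SNX27, stood at 70.3, 95.7, 145 and 132 CPM in those controls and at 138, 128, 485 and 340.0 CPM in those deficient mice, with the highest values in mice 12 and 13 (log2 fold change 1.13, SE 0.19, adjusted p = 0.008, edgeR). App, the amyloid precursor protein, rose by 0.45 and the copper pump Atp7a rose too, while the SNARE gene Stx16, with -0.45, and the iron reductase Steap3 fell. Among 12 further partners Dnajc13, a regulator of WASH, rose (0.19) and Tbc1d5, a Rab7 inhibitor bound by retromer, fell (-0.24). Of 21 other ESCRT genes Stam2 (0.36) and Stam (0.25), both ESCRT-0 subunits, rose. Of 16 tethering and phosphoinositide kinase genes, Fig4 (-0.27), a phosphoinositide phosphatase, and Rubcn (-0.28), an inhibitor of endosome maturation, fell.

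**Figure D4:**
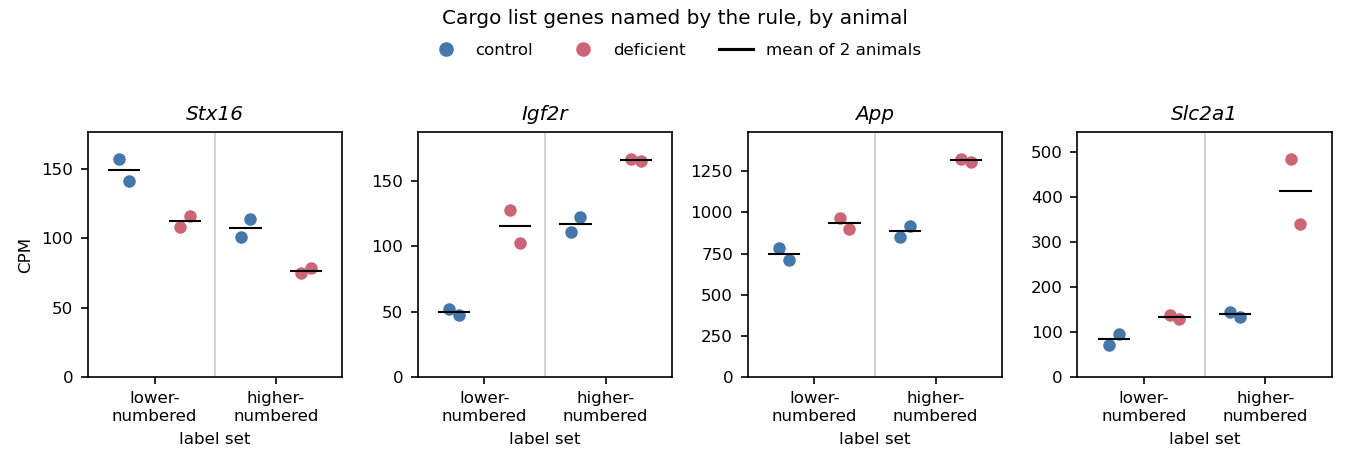
CPM of Stx16, Igf2r, App and Slc2a1 in each mouse, split by label set along the x axis and coloured by genotype, with a line at the mean of the 2 mice of a genotype in a set. Slc2a1 is highest in deficient mice 12 and 13, and Igf2r is lowest in controls 2 and 3.

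Markers of other cells moved with genotype and with label set, and their part in either result was not tested. In the higher-numbered set 6 of the 8 tested neutrophil markers were higher and 0 lower. Of the 5 tested endothelial and stellate markers 4 were higher and 0 lower, and of the 9 tested Kupffer cell markers 0 were higher and 3 lower. The hepatocyte list had 2 higher and 0 lower, the dendritic list 1 and 2, and the lymphocyte list 1 and 1. Over all genes 18.6% were higher and 18.3% lower. Neutrophil markers summed to 420.0 to 639 CPM in controls and 684 to 935 CPM in deficient mice, and 4 of the 8 tested rose. Of the 14 listed, Ly6g and Camp have no row in the count table. Mpo, Elane, Ltf and Retnlg had too few counts to be tested. Retnlg and Ngp were at 0 in 1 library each. The sum rests largely on Csf3r (251 to 404 CPM, log2 fold change -0.20), while the log2 fold change was 3.1 for S100a8, 2.72 for S100a9, 2.15 for Lcn2 and 0.91 for Mmp8, with a median of 0.93 over the list. Kupffer cell markers summed to 1181 to 2244 CPM in controls and 801 to 1214 CPM in deficient mice, with 6 of 9 tested lower and a median log2 fold change of -0.61. Hepatocyte markers summed to 350 to 574 CPM and 397 to 636 CPM, a sum that rests largely on Hp (262 to 555 CPM, log2 fold change 0.41, adjusted p = 0.0759). Of the 10 hepatocyte markers 6 fell, the median log2 fold change was -1.25, and Alb went from 139 ± 55.6 CPM in controls to 51.8 ± 9.24 CPM in deficient mice (SD, n = 4 each). Dendritic markers summed to 292 to 341 CPM and 275 to 360 CPM, with 3 of 7 lower, lymphocyte markers to 16.8 to 26.1 CPM and 12.6 to 14.3 CPM, with 1 of 7 lower, and endothelial and stellate markers to 27.0 to 121 CPM and 20.9 to 192 CPM, with 1 of 5 lower. The dendritic sum rests largely on Itgax (241 to 303 CPM, log2 fold change 0.12), while the median over that list was -0.83. The endothelial and stellate sum rests largely on Pecam1 (11.8 to 174 CPM, log2 fold change 1.21, not called), while the median over that list was -0.73. The lymphocyte list also had a median of -0.73. Of the 8 monocyte markers Itgam and F13a1 rose and Csf1r and Plac8 fell. In sorted bulk RNA a change in the share of a cell type and a change of RNA per cell cannot be told apart.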

How the data were processed

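Counts per gene, deposited by the authors as whole numbers, were the basis of all values; the authors' normalised signal columns in the same table were not tested. Per the submitters' processing notes, the tools were cutadapt, STAR 2.7.3a, HTSeq 0.12.4 and DESeq2 1.26.0 with GRCm38; their settings and strandedness are not given in the sources used here, so a gene and its antisense neighbour cannot be told apart. Genes were kept by filterByExpr (minimum count 10, minimum total 15), leaving 12178 of 15336, scaled by TMM and tested with edgeR 4.0.16 in R 4.3.3 (label set plus genotype, quasi-likelihood F-test, Benjamini-Hochberg over all genes tested, two-sided). Values are CPM on TMM-scaled library sizes (library total of the tested genes multiplied by the TMM factor); "rose", "fell" and "called" mean an adjusted p under 0.05. Limma voom 3.58.1, DESeq2 1.42.0, other scalings and filters, no label set, each set alone and each animal left out were alternatives. The test was tried on simulated counts. Exon lengths and overlaps came from GENCODE release M21. Where a symbol had several entries, the one with most counts was listed. Named genes were those called, up to 2 uncalled per role by smallest p, the 5 with the smallest label-set p each way, and up to 4 per other list; further genes were named after their values were seen. Members, lists and the label-set term in the model were chosen with earlier results of these data known. Mice are the replicates; p-values cover the spread between these libraries.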

Additional observations from a re-analysis of the deposited data

Results flagged for a closer look

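Clec4g, a marker of liver sinusoidal endothelium, stood at 16.9 CPM in control 11, apart from the other controls at 1.90, 2.33 and 4.06 CPM: the gap to the nearest was 0.857 of the range, above the 95% critical value of Dixon's test for 4 animals. It was the single such value among 134 groups of 4 animals examined, of which chance gives about 1 in 20. Dixon's test takes the 4 controls as a single group, though they come from both label sets. Clec4g was higher in the higher-numbered set (log2 difference 2.01, adjusted p = 0.0109, edgeR).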

How the results depend on the processing

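With each of the 8 mice left out in turn, 3 to 8 of the 68 genes rose, against 10 with all mice (6.59% of all genes). There were 6 calls without control 2 (3.48% of all genes) and without control 3 (4.09%), 8 without control 10 (5.6%) and 3 without control 11 (2.72%). Without deficient mouse 5, 6, 12 or 13 there were 8 (6.64%), 5 (4.47%), 3 (2.61%) and 5 (3.79%). Of the 68 genes 0 to 1 fell (Snx15, without deficient mouse 13), where 3.02% to 6.94% of all genes did. With no label set 0 rose, as of all genes. The lower-numbered set alone gave 0 (0.254% of all genes) and the higher-numbered set alone gave 2 of 69 (2.26%). The other scalings, filters and tools gave 8 to 12 rising and 0 falling, where 4.94% to 7.56% of all genes rose and 5.56% to 9.4% fell. All 10 called genes stayed above 0 under every alternative run. The label-set count higher in the higher-numbered mice was 5 with no genotype in the model (11.6% of all genes), against 22 (18.6%), and the lower count was 6 (10.6%), against 8 (18.3%). Commd10 kept its direction with an adjusted p above 0.05 without the label set (-0.94), in the lower-numbered set alone (-0.74) and in the higher-numbered set alone (-1.15). Values turned sign for Vps54 in the lower-numbered set alone (-0.0063), Snx10 in the same set (0.14), and Washc2 (-0.0057), Snx17 (-0.057) and Vps26b (0.0036) in the higher-numbered set alone; the cause was not tested. For 32 of the 68 genes, 462 of 544 alternative values kept direction and side of the threshold, 73 lost the call, 4 gained it and 5 turned sign. Only a called gene can lose its call, so all 73 losses fall on the 10 called genes. An uncalled gene counts as kept when it stays uncalled with its sign, so 462 of 544 does not measure how stable the 10 calls are. For 33 cargo, partner and marker genes, 395 of 555 did so, 159 lost the call and 1 gained it. No paired analysis was possible because controls and deficient mice have no replicate number in common. Low counts limit Ccdc22, where 3 counts equal 0.197 to 0.225 CPM on the TMM-scaled library sizes. The part of its exon overlap with Gm36995 in these low counts was not tested.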

Other observations

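Some of the genes varied widely between single mice and others hardly at all. The ratio of the highest to the lowest CPM over the 8 mice was 2.78 for Snx25, 2.22 for Snx18, 2.10 for Snx8, 2.08 for Snx6 and 2.06 for Snx5. It was 1.11 for Vps36, an ESCRT-II subunit, 1.11 for Vps52, a GARP and EARP subunit, and 1.15 for Vps4a, the ATPase that takes ESCRT filaments apart. Vps25, the ESCRT-II subunit with 17 to 44 counts per library, had a ratio of 2.40, and 67.2% of its exon bases are shared on the same strand with Ramp2. Vps37b shares 42.5% of its exon bases with genes on the other strand and Snx22 28.5%, so their values are uncertain if reads were counted without strand.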
